A study of Homo sapiens with 16 samples.

Results

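The genes described here are 8 secreted proteins, GDF15, FGF21, INHBE, ADM2, STC1, STC2, ANGPTL4 and AREG, and 1 receptor, VLDLR. They were listed by symbol, and each of the 9 symbols matched 1 of the 60676 Ensembl gene identifiers in the count tables of 2 melanoma cell lines. Total RNA was sequenced from A101D, which the labels call methionine dependent, and from MeWo, which they call methionine independent, with 8 libraries per line, numbered 1 to 8. Both are established human cell lines. The growth protocol, the same for all 16 libraries, names methionine at 200 µM in the control medium, and in its place homocysteine at 200 µM in the other, the precursor from which cells can remake methionine. Both media held 150 µM cystine and 5% dialyzed serum. The medium of each single library is given by no label and no header, so the media could not be compared. Values are given for replicates 1 to 4 and 5 to 8 of each line, as groups of numbers and not as treatments. Lines were tested against each other, while the sets of numbers within a line are described without a test. A test of whether the line difference differed between the sets uses the same split, chosen with earlier results known, and is a description. Nothing says whether replicates came from separate cultures, so p-values measure only the spread between these libraries, which may be technical.

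Cells short of an amino acid, or under stress in the endoplasmic reticulum, phosphorylate the initiation factor eIF2. This lowers translation in general but favours the transcription factor ATF4, which switches on amino acid synthesis and transport genes and several genes of exported proteins. GDF15 and FGF21 are the best known of these exported signals and act as hormones of metabolic stress in mammals. VLDLR, a lipoprotein receptor, is also known to respond to this pathway. The other genes answer to more than stress: ANGPTL4 is a target of the PPAR nuclear receptors and of hypoxia, and GDF15 is a target of p53.

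Positions are those of the GENCODE v29 annotation of GRCh38. GDF15 lies at chr19:18374731-18389176, FGF21 at chr19:48755559-48758333 and ANGPTL4 at chr19:8363289-8374373, all on the plus strand. INHBE lies at chr12:57452323-57459280, ADM2 at chr22:50481556-50486440, VLDLR at chr9:2621834-2660053 and AREG at chr4:74445134-74455009, also on the plus strand. STC2 lies on the minus strand at chr5:173314713-173329503. Reads on the exons of a gene were counted together for that gene, and the strand setting of the counting is not given in the sources used here. This matters for VLDLR and ANGPTL4, whose exons overlap those of an antisense gene. VLDLR-AS1 held 1263 counts over the 16 libraries against 14793 for VLDLR, and RAB11B-AS1 held 1003 against 9678 for ANGPTL4.

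Promoter sequences were available from RefSeq (GRCh38.p14) for 7 of the 9 genes. The 250 bases before each start were searched on both strands for 3 motifs. The first, TGATGNAA, is the C/EBP-ATF response element bound by ATF4 and its partners. The second, TGACGTCA, is the cyclic AMP response element, and the third is the TATA box, TATAAA. The windows of STC2, ADM2 and VLDLR held no match. Windows of 3 genes are shown because they differ in motif, 5′ to 3′ on the strand of the gene, with matches in capitals and without bases that GENCODE v29 annotates as untranslated exon of this or a neighbouring gene. That of GDF15, which also held a match, is not printed, because most of it is annotated so in a longer transcript. The RefSeq start of GDF15 and that of ANGPTL4 lie inside the longer gene spans given above.
FGF21, chr19:48755391-48755523, plus strand: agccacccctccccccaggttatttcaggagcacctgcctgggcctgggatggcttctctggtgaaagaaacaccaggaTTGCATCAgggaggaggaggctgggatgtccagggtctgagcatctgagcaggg
ANGPTL4, chr19:8363905-8364150, plus strand: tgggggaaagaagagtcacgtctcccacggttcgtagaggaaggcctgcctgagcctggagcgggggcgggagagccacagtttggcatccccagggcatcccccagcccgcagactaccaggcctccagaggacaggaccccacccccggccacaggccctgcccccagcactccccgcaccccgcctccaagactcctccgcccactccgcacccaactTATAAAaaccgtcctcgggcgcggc
AREG, chr4:74444886-74445133, plus strand: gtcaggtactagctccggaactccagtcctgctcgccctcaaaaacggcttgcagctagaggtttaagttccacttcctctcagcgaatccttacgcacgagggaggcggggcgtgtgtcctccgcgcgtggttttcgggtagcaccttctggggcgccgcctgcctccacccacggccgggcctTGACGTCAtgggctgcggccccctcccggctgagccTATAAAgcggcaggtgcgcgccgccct
FGF21 held the response element as TTGCATCA on the printed strand, 54 to 47 bases before the start, a match found in 3.14% of 35116 promoter windows of this length. AREG held the cyclic AMP response element 65 to 58 bases before its start, found in 1.65% of windows. GDF15, ANGPTL4 and AREG each held TATAAA 29 to 24 bases before the start, found in 10.7% of windows. A match is a description of the letters and shows no binding.

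The libraries held 28910881 to 38961862 counts. Within a line, genes with at least 1 count numbered 31281 to 33107 in A101D replicates 1 to 4, 34020 to 34607 in A101D replicates 5 to 8 and 30066 to 34471 in MeWo, where replicate 2 stood apart at the top. All 10 pigment cell markers had counts in every group of 4, and 1 of them, TYRP1, averaged under 1 CPM (counts scaled to library size, defined with the processing) in A101D replicates 1 to 4. Their sum ran from 3380 to 3981 CPM in that group, from 2877 to 3140 in A101D replicates 5 to 8 and from 10686 to 11925 in MeWo. TYR averaged 1.39 and 1.66 CPM in the A101D sets against 306 and 291 in MeWo, while DCT, S100B and S100A1 were higher in A101D. The A101D sets also differed in markers of other cell types. The summed level of 6 fibroblast markers ran from 914 to 1032 CPM in replicates 1 to 4 and from 584 to 651 CPM in 5 to 8, nearly all of it COL1A2, while COL1A1, COL3A1 and DCN averaged under 1.0 CPM. The 6 epithelial markers ran from 118 to 124 CPM and from 162 to 192 CPM, mostly KRT18, with EPCAM and KRT5 under 1.0 CPM. The 4 endothelial markers ran from 106 to 122 CPM and from 137 to 145 CPM, mostly KDR, with PECAM1 under 1.0 CPM. The lines differed more than the A101D sets did. In MeWo the fibroblast markers summed to 76.2 to 86.0 CPM, mostly LUM, with COL1A2 under 1.0 CPM. The epithelial markers there summed to 2.57 to 4.09 CPM and the endothelial markers to 2.99 to 3.38 CPM. The 5 leukocyte markers summed to at most 3.77 CPM in any library. The part of these differences in the results below was not tested, and in bulk RNA fewer expressing cells and less RNA per cell cannot be told apart.

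Among the 9 genes, 6 were lower in MeWo than in A101D and 2, ANGPTL4 and AREG, were higher over all 16 libraries, and FGF21 had too few counts for the test. INHBE passed the low-count filter only through the A101D libraries, the line where it is high, so its line difference had to differ and its calls in these counts support nothing. The test was limma-voom with p-values adjusted over 19247 genes, of which 79% passed the threshold of 0.05 in this comparison, 40.4% as lower and 38.6% as higher. The differences of the genes lower in MeWo were larger in replicates 5 to 8 than in 1 to 4. Within replicates 1 to 4, 6 of the 8 tested genes were lower and 2 higher, against 81.5% of all genes that passed (42.7% lower and 38.8% higher). Within replicates 5 to 8, 6 were lower and 1 higher, against 85.3% (43.6% lower and 41.7% higher), and AREG did not pass. The shares of all genes were thus high enough that the count of calls does not set these genes apart.

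The line difference itself differed between the sets for 8 of 8 tested genes, against 52.7% of all genes. In each it was more negative in replicates 5 to 8, a direction found in 24.5% of all genes, with 28.3% in the other. This test uses the split of replicate numbers, which was chosen, like the genes, with earlier results of these data known. Its counts and p-values here and below are thus a description and support nothing further. The 8 genes include INHBE, which passed the low-count filter only through A101D. The median line difference of the 8 genes was -1.67 on the log2 scale in replicates 1 to 4 and -3.50 in 5 to 8, beside -0.03 and -0.02 over all genes tested. No A101D library overlapped the range of MeWo for 7 of the 9 genes over all 16 libraries (all but FGF21 and AREG), against 57.7% of all genes. The ranges were also apart for 8 of 9 in replicates 1 to 4 (all but FGF21), against 75.9%, and for 9 of 9 in replicates 5 to 8, against 80.7%.

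**Figure D1:**
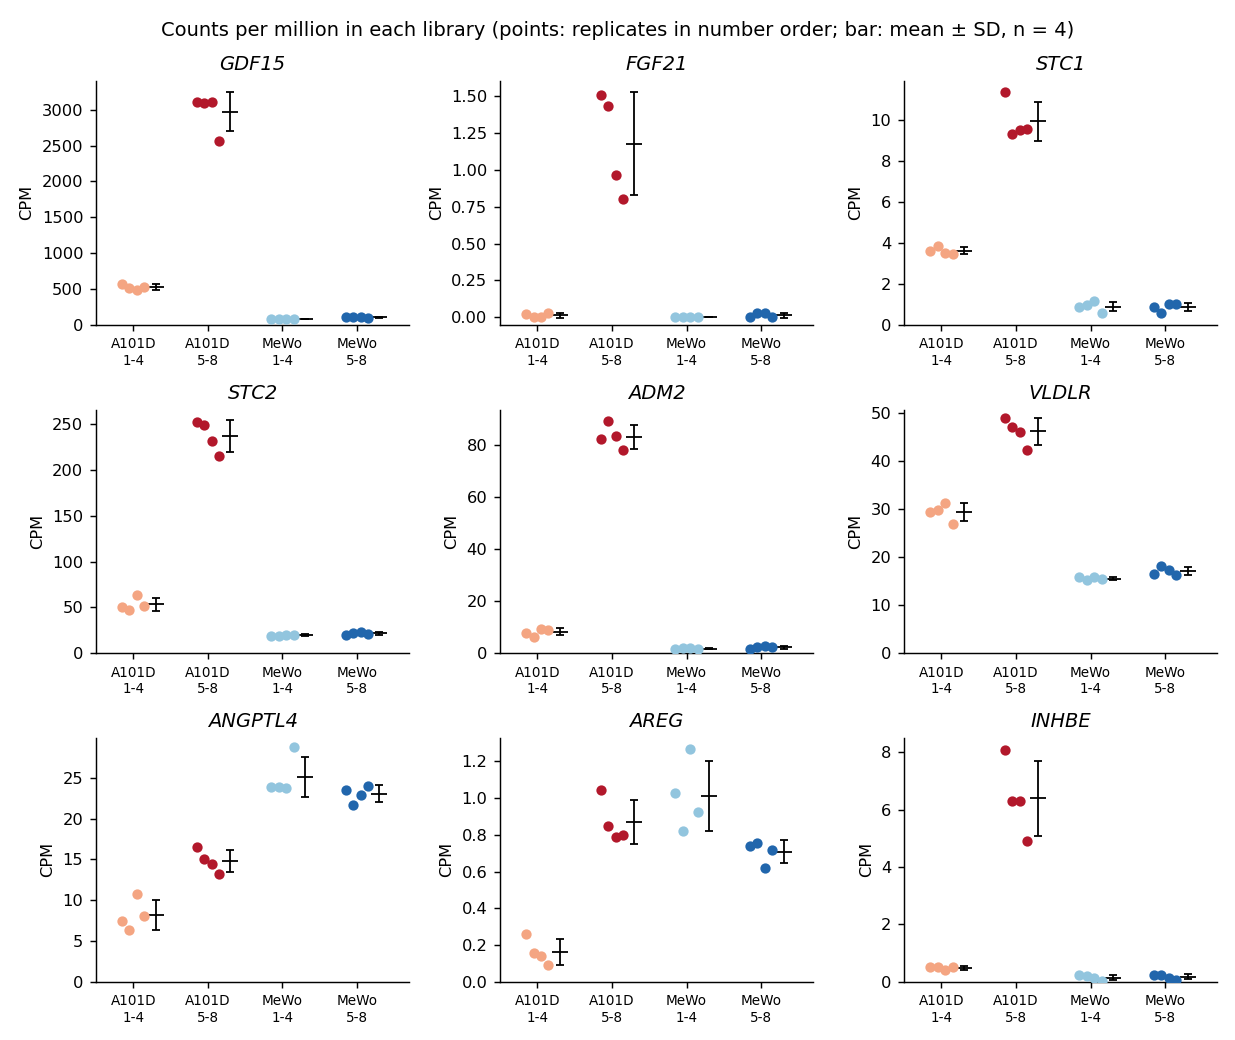
CPM (y axis, linear, one panel per gene) in each library of A101D and MeWo, split by replicate number (x axis); points are libraries in number order and bars are mean ± SD of 4 libraries. A101D replicates 5 to 8 lie above A101D replicates 1 to 4 in every panel, with GDF15 reaching 3114 CPM, while the MeWo sets differ by less in each panel. The FGF21 axis starts just under 0 so that libraries without counts can be seen.

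Within A101D, all 4 libraries of replicates 5 to 8 lay above all 4 of replicates 1 to 4 for each of the 9 genes. This separation in the same direction was found for 30.5% of all genes tested, with 31.7% in the other direction and 62.3% in either. Of the 8 genes that passed the low-count filter, 6 differed by at least 1 on the log2 scale, 5 by at least 2 and 2 by at least 3, beside 7.69%, 1.21% and 0.192% of all genes. In MeWo the sets did not overlap for 3 of the 9 genes, GDF15 and VLDLR (higher in 5 to 8) and AREG (lower in 5 to 8), against 8.81% of all genes higher, 9.4% lower and 18.2% in either direction. Without MeWo replicate 5 the MeWo sets of STC2 and ADM2 separated too, which made 5 of 9. The shares of all genes above are for all MeWo libraries, and fewer libraries separate more easily. The count of 5 thus has no share to stand beside.

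GDF15, a distant member of the TGF-beta family that signals to the brain stem through GFRAL and RET and lowers appetite, was the most abundant of these genes. In A101D replicates 1 to 4 it was at 576, 514, 479 and 526 CPM, and in replicates 5 to 8 at 3114, 3102, 3105 and 2562 CPM. MeWo libraries were at 78.1, 79.9, 74.1 and 75.5 CPM in replicates 1 to 4 and at 112, 104, 112 and 96.1 CPM in replicates 5 to 8. The 4 groups did not overlap, every A101D library was above every MeWo library, and A101D replicate 8 was the lowest of its set. GDF15 took 0.264% to 0.327% of all counts in A101D replicates 5 to 8 and 0.00728% to 0.0113% in MeWo. MeWo was 6.81-fold lower in replicates 1 to 4 (log2 fold change -2.77 ± 0.085 SE, adjusted p = 2.17e-13) and 28.0-fold lower in 5 to 8 (-4.81 ± 0.078, adjusted p = 5.64e-17). These line differences differed by -2.04 ± 0.12 (adjusted p = 1.47e-09). When genes of low count were kept in the fit the value was -1.98 but its SE was 1.08 and the adjusted p 0.250, so this call was lost. The sets differed by 2.50 ± 0.070 in A101D and by 0.46 ± 0.092 in MeWo on the log2 scale.

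FGF21, a hormone of fasting and nutrient stress that needs the co-receptor KLB, was close to absent outside A101D replicates 5 to 8. These 4 libraries held 49, 54, 33 and 29 counts, or 1.51, 1.43, 0.965 and 0.800 CPM. The other A101D libraries held 1, 0, 0 and 1 counts, and MeWo held 0 counts in replicates 1 to 4 and 0, 1, 1 and 0 in replicates 5 to 8. A count of 0 in MeWo replicates 1 to 4, over 133960558 counts, allows up to 3 counts or 0.0228 CPM. All 4 libraries of A101D replicates 5 to 8 thus stood above the other 12. The ratio of summed counts was 77.4 between the A101D sets (95% exact interval 21.1 to 645) and 82.0 between A101D and MeWo in replicates 5 to 8 (22.3 to 683), both covering counting error only. FGF21 passed no filter that asked for counts in 8 libraries. A filter in 4 libraries was passed only through the group where FGF21 was high, so its fitted values are a description. The line difference was then -0.79 in replicates 1 to 4 and -5.51 in 5 to 8.

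INHBE encodes the subunit of activin E, a signal of the liver to fat tissue whose receptor is the kinase ACVR1C. It was at 0.522, 0.531, 0.392 and 0.505 CPM in A101D replicates 1 to 4 and at 8.09, 6.31, 6.29 and 4.91 CPM in replicates 5 to 8. The MeWo values were at 0.228, 0.189, 0.127 and 0.0299 CPM and at 0.226, 0.252, 0.147 and 0.0767 CPM, with no more than 9 counts in any library. The A101D sets lay far apart, the MeWo sets overlapped, and no MeWo library reached an A101D library. The ratio of summed counts of A101D to MeWo was 3.41 in replicates 1 to 4 (95% interval 2.02 to 6.03) and 37.0 in 5 to 8 (24.7 to 58.1). All 8 A101D libraries were above the filter level of 0.298 CPM and all 8 MeWo libraries below it, so INHBE was tested only through the line where it is high, and its fitted line differences are a description. The fitted line differences were -1.91 ± 0.48 and -5.19 ± 0.37, and they differed by -3.28 ± 0.60. The A101D sets differed by 3.64 ± 0.27 on the log2 scale, rank 9 from the top among 19247 genes, and the MeWo sets by 0.36 ± 0.54.

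ADM2, or intermedin, is a vasodilator peptide of the calcitonin family that uses the receptor CALCRL with a RAMP partner. In A101D it was at 7.91, 6.43, 9.37 and 9.03 CPM in replicates 1 to 4 and at 82.1, 89.2, 83.4 and 77.9 CPM in replicates 5 to 8. In MeWo it was at 1.51, 1.86, 1.84 and 1.73 CPM and at 1.64, 2.41, 2.94 and 2.33 CPM. The A101D sets were about an order of magnitude apart, and the MeWo sets overlapped only through MeWo replicate 5. MeWo was 4.64-fold lower in replicates 1 to 4 (log2 fold change -2.22 ± 0.16, adjusted p = 1.53e-14) and 35.9-fold lower in 5 to 8 (-5.17 ± 0.13, adjusted p = 3.45e-28). The line differences differed by -2.95 ± 0.21 (adjusted p = 3.55e-14). The A101D sets differed by 3.36 ± 0.080, rank 21 from the top of 19247 genes, and the MeWo sets by 0.41 ± 0.19.

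The stanniocalcins STC1 and STC2 are secreted glycoproteins, named after a calcium-regulating hormone of fish, that inhibit the protease PAPPA and so hold back the release of insulin-like growth factors. STC2 was at 50.8, 47.1, 63.9 and 51.4 CPM in A101D replicates 1 to 4 and at 252, 249, 231 and 215 CPM in replicates 5 to 8. MeWo libraries were at 18.5, 19.2, 20.4 and 20.4 CPM and at 20.4, 22.2, 23.0 and 20.8 CPM, so that the MeWo sets touched at 1 library while the A101D sets were far apart. MeWo was 2.69-fold lower in replicates 1 to 4 (-1.43 ± 0.088, adjusted p = 6.82e-12) and 10.9-fold lower in 5 to 8 (-3.45 ± 0.079, adjusted p = 2.10e-19), and these differed by -2.02 ± 0.12 (adjusted p = 1.30e-11). The A101D sets of STC2 differed by 2.16 ± 0.066 and the MeWo sets by 0.14 ± 0.098.

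STC1 was the lower of the pair in every group, on a level per kb of exon. It was at 3.60, 3.84, 3.53 and 3.45 CPM in A101D replicates 1 to 4 and at 11.4, 9.30, 9.53 and 9.55 CPM in replicates 5 to 8. The MeWo levels were at 0.885, 0.946, 1.14 and 0.598 CPM and at 0.870, 0.560, 1.00 and 0.997 CPM. The MeWo sets lay over each other, and all A101D libraries were above all MeWo libraries. The line difference was -2.04 ± 0.19 in replicates 1 to 4 (adjusted p = 1.91e-12) and -3.54 ± 0.17 in 5 to 8 (adjusted p = 1.04e-20), and these differed by -1.50 ± 0.26 (adjusted p = 4.72e-06). The A101D sets of STC1 differed by 1.45 ± 0.10 and the MeWo sets by -0.05 ± 0.23.

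VLDLR, the receptor among these genes, takes up triglyceride-rich lipoproteins and carries the reelin signal. It was at 29.5, 29.8, 31.3 and 26.9 CPM in A101D replicates 1 to 4 and at 49.1, 47.2, 46.2 and 42.4 CPM in replicates 5 to 8. In MeWo it was at 15.8, 15.2, 15.9 and 15.4 CPM and at 16.5, 18.1, 17.3 and 16.3 CPM. The 4 groups did not overlap, yet the A101D sets were less than 2-fold apart and the MeWo sets differed by 0.13 ± 0.064 on the log2 scale. The line difference was -0.91 ± 0.059 in replicates 1 to 4 (adjusted p = 6.41e-17) and -1.44 ± 0.054 in 5 to 8 (adjusted p = 1.65e-24). The difference between these, -0.52 ± 0.080 (adjusted p = 6.18e-07), was the smallest among the 8 tested genes. The A101D sets of VLDLR differed by 0.66 ± 0.048, rank 2855 from the top of 19247 genes.

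ANGPTL4, a secreted inhibitor of lipoprotein lipase, had the opposite line difference and was higher in MeWo. It was at 7.49, 6.37, 10.8 and 8.08 CPM in A101D replicates 1 to 4 and at 16.5, 15.1, 14.4 and 13.2 CPM in replicates 5 to 8. MeWo libraries were at 23.9, 23.9, 23.8 and 28.8 CPM and at 23.6, 21.7, 23.0 and 24.1 CPM. Every MeWo library was above every A101D library, the A101D sets did not overlap, and MeWo replicate 4 was the highest library of all. MeWo was 3.14-fold higher in replicates 1 to 4 (1.65 ± 0.10, adjusted p = 1.87e-14) and 1.56-fold higher in 5 to 8 (0.65 ± 0.083, adjusted p = 6.45e-08), a difference of -1.01 ± 0.13 (adjusted p = 2.44e-07). The sets differed by 0.89 ± 0.11 in A101D and by -0.12 ± 0.075 in MeWo.

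AREG, or amphiregulin, is a membrane-anchored ligand of the epidermal growth factor receptor that the protease ADAM17 releases. Its counts were low, with 3 to 40 per library. It was at 0.261, 0.156, 0.142 and 0.0891 CPM in A101D replicates 1 to 4 and at 1.05, 0.848, 0.789 and 0.800 CPM in replicates 5 to 8. The MeWo values were at 1.03, 0.820, 1.27 and 0.927 CPM and at 0.741, 0.755, 0.618 and 0.716 CPM. A101D replicates 1 to 4 were the lowest group by far, and the other groups lay close together. The line difference was 2.58 ± 0.31 in replicates 1 to 4 (adjusted p = 1.84e-09) and -0.28 ± 0.22 in 5 to 8 (adjusted p = 0.219, 95% interval -0.72 to 0.15). These differed by -2.86 ± 0.38 (adjusted p = 4.46e-08). Over all 16 libraries the line difference was 1.12 ± 0.41 (adjusted p = 0.0201), with overlapping libraries, and it did not pass a threshold of 0.01. The sets differed by 2.37 ± 0.32 in A101D and by -0.49 ± 0.21 in MeWo, the opposite direction.

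**Figure D2:**
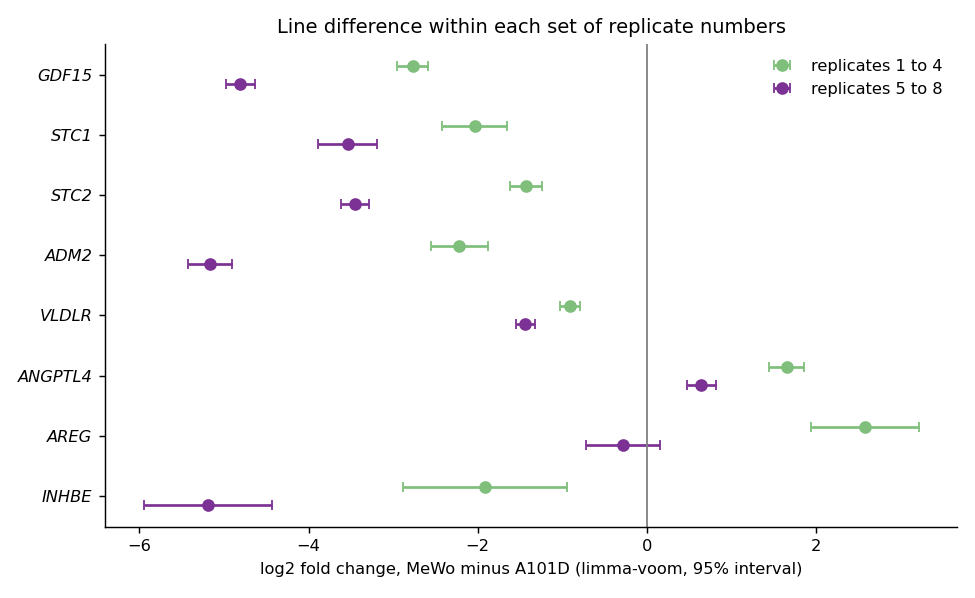
Log2 fold change of MeWo over A101D (x axis) for the 8 genes that passed the low-count filter (y axis), within replicates 1 to 4 and within replicates 5 to 8; points are limma-voom estimates and bars are 95% intervals. Every gene lies further left in replicates 5 to 8, from a shift of -0.52 for VLDLR to -3.28 for INHBE, and the interval of AREG in replicates 5 to 8 crosses 0. INHBE, tested only through the line where it is high, is shown as a description.

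Per kb of exon, GDF15 was the highest of the 9 genes in all 4 groups, at 251, 1424, 36.8 and 50.8 CPM per kb in A101D replicates 1 to 4 and 5 to 8 and MeWo replicates 1 to 4 and 5 to 8. The genes below it came in different orders. In A101D replicates 1 to 4 the order was STC2 (8.70 CPM per kb), ANGPTL4 (3.30), VLDLR (3.15), ADM2 (1.91), STC1 (0.869), INHBE (0.162), AREG (0.0984) and FGF21 (0.0106). ANGPTL4 and VLDLR overlapped there, as did INHBE and AREG. In A101D replicates 5 to 8 ADM2 (19.4) stood above ANGPTL4 (5.97), VLDLR (4.95), STC1 (2.39) and INHBE (2.12), and STC2 (38.7) was again next to GDF15. STC1 and INHBE overlapped in that group, as did FGF21 (0.894) and AREG (0.529). In MeWo ANGPTL4 (10.1 and 9.29) stood above STC2 (3.20 and 3.52) and VLDLR (1.67 and 1.83) in both sets. ADM2 (0.406 and 0.545) and AREG (0.613 and 0.429) overlapped in MeWo replicates 5 to 8, and STC1 (0.215 and 0.207) and INHBE (0.0476 and 0.0581) lay below them.

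**Figure D3:**
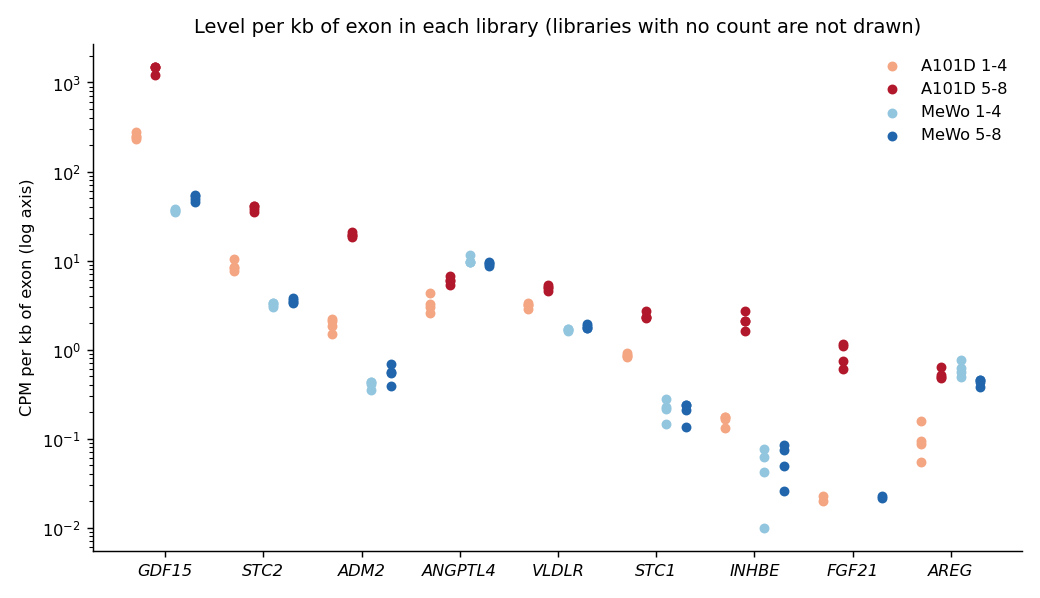
Level per kb of exon (y axis, CPM per kb, log axis) in each library for the 9 genes (x axis), coloured by line and set of replicate numbers; libraries with no count are not drawn. GDF15 is the highest in every group, and in A101D replicates 5 to 8 ADM2 averaged 19.4 CPM per kb, above ANGPTL4 and VLDLR.

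The spread between libraries of a group was smallest for VLDLR in MeWo replicates 1 to 4, with a coefficient of variation of 2.11%, and largest for genes with few counts. INHBE varied by 60.3% in MeWo replicates 1 to 4, on 19 summed counts, and AREG by 44.4% in A101D replicates 1 to 4, on 22. FGF21 varied most, by 116% in A101D replicates 1 to 4 and in MeWo replicates 5 to 8, on 2 summed counts each, and by 29.5% in A101D replicates 5 to 8. GDF15 varied by 3.39% to 9.17% in the 4 groups. Over all 8 A101D libraries the coefficient of variation ran from 24.5% for VLDLR to 111% for FGF21. Over all 8 MeWo libraries it ran from 6.09% for VLDLR to 185% for FGF21, on 2 summed counts, with 18.0% for GDF15.

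The genes whose profile over the 16 libraries was nearest were found by the root mean square (RMS) difference of centred log2 CPM, among genes averaging at least 10 CPM. GDF15 was the second nearest to ADM2, with an RMS difference of 0.375, while ADM2 was not among the 3 nearest to GDF15. ADM2 (0.575) and GDF15 (0.621) were the nearest to INHBE, at larger distances than the nearest genes of the other members. The long noncoding RNA LINC02915 was nearest to ADM2 (0.325), and the glycine transporter gene SLC6A9 was nearest to GDF15 (0.240). Nearest to VLDLR was ERBB3 (0.0633), a receptor of the neuregulins, at 484 and 744 CPM in the A101D sets and 258 and 269 CPM in the MeWo sets. STC1 was nearest to PPP1R3C (0.233), a glycogen-targeting subunit of protein phosphatase, followed by TES and SLC30A1, and STC2 to CDC42EP3 (0.234), followed by KDM7A and KSR1. ANGPTL4 was nearest to NBPF1 (0.134), followed by DKK1 and MYL5, and AREG to ZNF48 (0.260), followed by NFIL3 and SYNE1. LARP6 and PTX3 followed SLC6A9 for GDF15, and ZNF394 and ZKSCAN5 followed ERBB3 for VLDLR. The nearest genes of GDF15, STC1, STC2, ADM2 and INHBE were high in A101D replicates 5 to 8, intermediate in 1 to 4 and low in MeWo.

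Genes of the integrated stress response, the ATF4 pathway, were split between the lines in replicates 1 to 4 and mostly lower in MeWo in replicates 5 to 8. In replicates 1 to 4, 11 of 21 were higher in MeWo and 7 lower, beside 38.8% and 42.7% of all genes. The median log2 fold change was 0.47. In replicates 5 to 8, 3 were higher and 16 lower, beside 41.7% and 43.6% of all genes, with a median of -0.59. The line difference was more negative in replicates 5 to 8 for 19 of 21 by the test of the difference itself, beside 24.5% of all genes. The median of that difference was -1.32, beside 0.03 over all genes. The list was chosen with results of these libraries known.

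ATF4, the central transcription factor, was at 319 ± 9.72 CPM in A101D replicates 1 to 4 and at 324 ± 2.95 in MeWo (SD, n = 4), a line difference of 0.02 ± 0.032 (adjusted p = 0.514). In replicates 5 to 8 it was at 808 ± 17.6 and 537 ± 23.3 CPM, and MeWo was lower by a log2 fold change of -0.59 ± 0.030 (adjusted p = 2.60e-20). ATF4 thus did not overlap between the sets in either line, whereas FGF21, STC1, STC2, ADM2, ANGPTL4 and INHBE overlapped in MeWo. Without MeWo replicate 5 the sets of STC2 and ADM2 separated too, and those of GDF15, VLDLR and AREG were already apart. No such count is given for the stress response list or for all genes. With all libraries, 6 of the 21 stress response genes overlapped in MeWo. This stands beside 5 of the 8 tested hormone and receptor genes and 15742 of 19247 genes tested. Whether the lists differ in overlap was not tested. CHAC1, which degrades glutathione, was at 19.5 ± 1.31 and 220 ± 19.5 CPM in the A101D sets and at 14.8 ± 0.796 and 39.1 ± 4.39 in the MeWo sets. TRIB3, a pseudokinase that restrains ATF4, was at 39.9 ± 1.94 and 216 ± 13.0 CPM in A101D and at 73.7 ± 4.37 and 116 ± 9.15 in MeWo. In both genes, too, the sets did not overlap in either line.

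DDIT3, the transcription factor CHOP, was at 14.9 ± 0.775 and 47.1 ± 3.37 CPM in the A101D sets and at 25.2 ± 1.39 and 34.9 ± 2.26 in the MeWo sets. ASNS, which makes asparagine, was at 2.24 ± 0.136 and 10.3 ± 0.558 CPM in A101D and at 5.70 ± 0.688 and 8.90 ± 0.649 in MeWo. Both were higher in MeWo in replicates 1 to 4 and lower in 5 to 8, with line differences of 0.75 and -0.43 for DDIT3 and of 1.33 and -0.20 for ASNS, each past the threshold (adjusted p of 0.0111 or less). ATF3 was lower in MeWo in both sets, by -2.17 ± 0.095 and -2.96 ± 0.081. The cystine transporter gene SLC7A11 was higher in MeWo in both sets, by 3.53 ± 0.046 and 0.87 ± 0.039, and its MeWo sets overlapped. Within A101D 19 of the 21 genes had all libraries of replicates 5 to 8 above all of 1 to 4, with a median difference of 1.77, beside 30.5% of all genes. Within MeWo 15 of 21 did, with a median of 0.40, beside 8.81% of all genes. The median difference of the 8 tested hormone and receptor genes was 2.27 in A101D and 0.14 in MeWo.

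**Figure D4:**
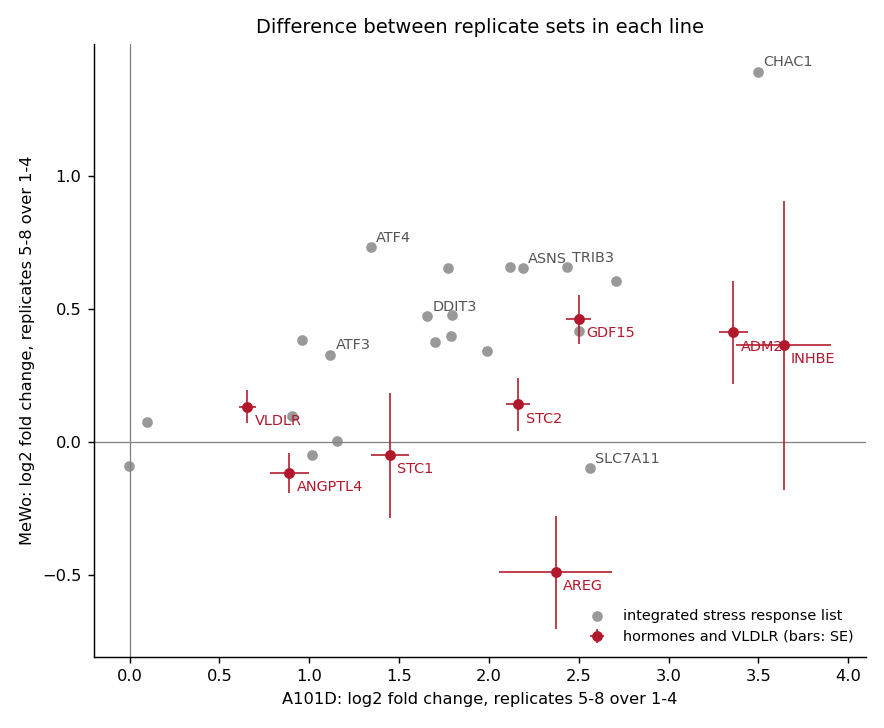
Log2 fold change of replicates 5 to 8 over 1 to 4 in A101D (x axis) against the same in MeWo (y axis) for the 8 tested hormone and receptor genes (red, bars are SE) and the 21 genes of the integrated stress response (grey). All red points lie right of 0, from 0.66 for VLDLR to 3.64 for INHBE, and between -0.49 and 0.46 on the MeWo axis, while CHAC1 lies at 1.39 in MeWo.

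Receptors and partners of these signals were split between the lines. Of 31 listed, 26 were tested. In replicates 1 to 4, 13 were higher in MeWo and 12 lower, beside 38.8% and 42.7% of all genes. In replicates 5 to 8 the counts were 13 and 11, beside 41.7% and 43.6%. The line difference differed between the sets for 12 of 26, in 7 upward and in 5 downward. The shares of all genes were 52.7%, 28.3% and 24.5%, so this count does not set the receptors apart. GFRAL, the receptor of GDF15, held no count in A101D and 1 in MeWo, and the 8 A101D libraries allow up to 0.0110 CPM. KLB, the co-receptor of FGF21, was at 1.26 ± 0.179 and 1.18 ± 0.110 CPM in the A101D sets and at 2.16 ± 0.377 and 2.47 ± 0.10 in the MeWo sets, and was higher in MeWo in both (0.75 ± 0.16 and 1.07 ± 0.16). FGFR1, the receptor that pairs with KLB, was higher in MeWo by 6.03 ± 0.16 in both sets, at 1.03 and 0.935 CPM in A101D against 65.2 and 61.5 CPM in MeWo.

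EGFR, the receptor of amphiregulin, was the reverse, at 30.3 ± 1.00 and 22.2 ± 1.84 CPM in A101D and at 3.73 ± 0.39 and 2.97 ± 0.334 in MeWo. CALCRL, the receptor of ADM2, held 1 and 16 summed counts in the A101D sets and 6 and 9 in the MeWo sets, too few to test. ACVR1C, the receptor of activin E, was at 1.89 ± 0.162 and 2.07 ± 0.440 CPM in A101D and at 3.65 ± 0.458 and 3.40 ± 0.524 in MeWo, higher in MeWo in both sets. For KLB, FGFR1, EGFR and ACVR1C the line difference did not pass the test of a difference between the sets (adjusted p of 0.253 or more). Among partners singled out after their values were seen, the stanniocalcin target PAPPA was at 16.7 ± 1.33 and 12.4 ± 0.850 CPM in A101D and held 12 and 9 summed counts in MeWo. RELN, the reelin ligand of VLDLR, was at 0.717 ± 0.117 and 8.04 ± 2.32 CPM in the A101D sets and at 1.89 ± 0.219 and 1.86 ± 0.338 in the MeWo sets.

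Family relatives were counted in the same way. Of 29 relatives 20 were tested, 14 were lower and 5 higher in MeWo in replicates 1 to 4, beside 42.7% and 38.8% of all genes, and 14 lower and 6 higher in 5 to 8, beside 43.6% and 41.7%. INHBA, the activin A subunit and a relative of INHBE, was higher in MeWo in both sets, by 5.23 ± 0.15 and 2.60 ± 0.066. It was at 1.19 ± 0.0514 and 8.25 ± 0.701 CPM in the A101D sets and at 45.1 ± 2.16 and 49.7 ± 2.67 in the MeWo sets, and the difference between the line differences was -2.63 ± 0.16 (adjusted p = 9.74e-17). ANGPTL2 was higher in MeWo by 3.28 ± 0.047 and 3.48 ± 0.048, with sets close to each other in each line. LRP2, an endocytic relative of VLDLR, was at 89.5 ± 9.66 and 68.0 ± 1.99 CPM in A101D and held 9 and 14 summed counts in the MeWo sets.

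Proteases that process or release these proteins differed by gene. FURIN, a proprotein convertase that can cleave precursors of the TGF-beta family, was at 157 ± 4.93 and 198 ± 5.74 CPM in A101D and at 248 ± 4.62 and 241 ± 15.3 in MeWo, higher in MeWo in both sets (0.66 ± 0.037 and 0.28 ± 0.036). PCSK5 was at 25.9 ± 0.675 and 14.2 ± 1.24 CPM in A101D, against 6 summed counts in each MeWo set. RHBDF1, a partner of ADAM17, was at 81.7 ± 4.61 and 48.4 ± 5.65 CPM in A101D and at 89.8 ± 8.59 and 96.2 ± 3.10 in MeWo, and only in replicates 5 to 8 did its line difference pass (0.13, adjusted p = 0.0882, and 1.00, adjusted p = 2.22e-10), with a tested difference of 0.86 ± 0.10 between them. Of the 12 listed, 3 were higher in MeWo and 5 lower in replicates 1 to 4, and 6 and 6 in 5 to 8. The shares of all genes were 38.8% higher and 42.7% lower in replicates 1 to 4, and 41.7% and 43.6% in 5 to 8. The count of 3 was 6 with median-of-ratios factors.

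Genes of other pathways known to act on some of these genes were also counted. All 14 p53 targets were lower in MeWo in both sets, with medians of -2.16 and -2.46, beside 42.7% and 43.6% of all genes called lower. The line difference was more negative in replicates 5 to 8 for 7, beside 24.5% of all genes, and less so for 1, BAX, beside 28.3%. FAS, a death receptor, was at 27.7 ± 1.33 and 40.2 ± 0.693 CPM in A101D and at 0.454 ± 0.0972 and 0.447 ± 0.0832 in MeWo, and BBC3, which encodes PUMA, was at 12.2 ± 1.11 and 21.5 ± 1.55 CPM in A101D and at 7.31 ± 0.559 and 10.4 ± 0.353 in MeWo. Of 13 hypoxia genes tested, 7 were higher and 4 lower in MeWo in replicates 1 to 4, and 6 and 7 in 5 to 8. The shares of all genes were 38.8% higher and 42.7% lower in replicates 1 to 4, and 41.7% and 43.6% in 5 to 8. PFKFB4, a glycolytic regulator, was higher in MeWo by 2.89 ± 0.040 and 4.01 ± 0.050, and NDRG1 was lower by -2.07 ± 0.040 and -2.38 ± 0.038. Of 13 genes around the PPAR receptors, 6 were higher and 6 lower in replicates 1 to 4, and 5 and 8 in 5 to 8. These counts stand beside the same shares of all genes. PLIN2, a lipid droplet protein, was lower in MeWo by -1.42 ± 0.042 and -2.00 ± 0.040, and RXRA, the partner receptor of the PPARs, was higher by 2.06 ± 0.056 and 2.17 ± 0.058, while ANGPTL4 was higher in MeWo in both sets.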

How the data were processed

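The deposited tables, 1 for each cell line, hold raw counts of reads on the exons of each gene, per the file headers, which name 1 sorted alignment per library. Each deposited cell joins the gene identifier and its count, and both were separated before use. The submitters' processing notes name Trimmomatic 0.39-1, STAR 2.7.1a, featureCounts 2.0.0 and the build GRCh38. The annotation release and strand setting were not given in the sources used here. The kit was a stranded one for total RNA, according to the protocols in the labels.

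CPM are counts per 1e+06 of library size scaled by trimmed mean of M-values factors (trims of 30% on ratios and 5% on means). CPM per kb divides by the summed exon length in GENCODE v29. A gene was tested when it reached 0.298 CPM (10 counts at median depth) in 8 or more libraries, with a sum of 15 counts or more, leaving 19247 genes and 8 of the 9 listed genes. Comparisons used limma 3.58.1 in R 4.3.3 with weights from voom, robust empirical Bayes, adjusted after Benjamini and Hochberg over all genes tested, two-sided, threshold 0.05. The 16-library comparison had 2 groups. All others came from 1 fit of 4 groups (line by replicate numbers 1 to 4 or 5 to 8), and the test of a difference between sets is its interaction. Differences are MeWo minus A101D on the log2 scale, written ± SE. The limma step was tested on simulated counts in which few genes were changed and the lines otherwise shared their means. Most genes differed between the lines in these data, so that setting does not check scaling or error rates here.

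The genes, the lists and the split of replicate numbers were chosen with earlier results of these data known. Named other genes are those of largest and smallest line difference in each list with a mean of at least 10 CPM, the 3 nearest profiles, and ATF4, DDIT3, ASNS, TRIB3, CHAC1, GFRAL, KLB, CALCRL, EGFR and ACVR1C. PAPPA and RELN fall outside this rule and were named after their values were seen. Intervals of count ratios are exact at 95% and, like limits for a count of 0 (3 counts over the group), cover counting error only. The lowest chi-square per degree of freedom among 24 pairs within a set was 1.97, so no library was counted as a duplicate. Alternatives were other scaling factors, filters, thresholds, limma-trend, a replicate block and leaving out each library.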

Additional observations from a re-analysis of the deposited data

Results flagged for a closer look

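The line difference itself differed between replicates 5 to 8 and 1 to 4, by the limma interaction test adjusted over all genes, for all 8 tested hormone and receptor genes. The log2 differences were -2.04 for GDF15, -1.50 for STC1, -2.02 for STC2, -2.95 for ADM2, -0.52 for VLDLR, -1.01 for ANGPTL4, -2.86 for AREG and -3.28 for INHBE. In the integrated stress response list they were -0.61 for ATF4, -0.79 for ATF3, -1.18 for DDIT3, -1.54 for ASNS, -1.78 for TRIB3, -2.11 for CHAC1 and -2.66 for SLC7A11. Among relatives and proteases they were -2.63 for INHBA, 0.20 for ANGPTL2, -0.38 for FURIN and 0.86 for RHBDF1. Among p53, hypoxia and PPAR genes they were -0.30 for BBC3, 0.40 for BAX, 1.12 for PFKFB4, -0.31 for NDRG1 and -0.59 for PLIN2. As 52.7% of all genes passed this test, passing it does not set these genes apart. The split of numbers was chosen with earlier results known, and INHBE passed the low-count filter only through A101D. These values are thus a description.

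Libraries were also checked for a large distance from the others of their group, judged by the gap to the nearest library over the whole range, in groups averaging at least 10 counts. Chance flags about 1 in 20 groups. Of 184 groups examined 9 were flagged, against 9.2 expected by chance, so their number is no more than chance gives. GDF15 was at 2562 CPM in A101D replicate 8 against 3102 to 3114 in the others of its set, and STC1 at 11.4 CPM in A101D replicate 5 against 9.30 to 9.55. ANGPTL4 was at 28.8 CPM in MeWo replicate 4 against 21.7 to 24.1 in the other 7 MeWo libraries. The same library had SLC7A11 at 762 CPM against 711 to 720 in its set. FURIN was at 164 CPM in A101D replicate 1 against 153 to 155, and ATF4 at 333 CPM in A101D replicate 3 against 313 to 315. RHBDF1 was at 91.6 CPM in MeWo replicate 6 against 97.7 to 97.9, and CHAC1 at 32.6 CPM in MeWo replicate 8 against 40.8 to 41.8.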

How the results depend on the processing

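Leaving out each library in turn kept the direction and call of all 512 values of the 8 tested genes. For comparisons within a set, some of these values left out a library of the other set. Such values could hardly move, because that library enters only the shared spread and scaling. The count of calls stayed at 8 of 8 over 16 libraries, in replicates 1 to 4 and for the interaction. It stayed at 7 of 8 in replicates 5 to 8. These counts include INHBE, whose calls support nothing. Genes whose MeWo sets did not overlap numbered 3 of 9. They numbered 3 to 5 when a MeWo library was left out (5 without MeWo replicate 5), and 5 with median-of-ratios factors. The cause was not tested, and shares of all genes are not given for these alternatives. Without the low-count filter, with 47564 genes tested, the interaction of GDF15 was lost (-1.98, SE 1.08, adjusted p = 0.250), and the cause was not tested. The AREG difference over 16 libraries was lost at a threshold of 0.01 and with the replicate block (0.82, adjusted p = 0.128). A filter at 1 CPM left 6 of the 9 genes to test. Among list counts, proteases higher in MeWo in replicates 1 to 4 numbered 6 with median-of-ratios factors and 5 with upper-quartile factors or the block, beside 3. Over both sets, averaging the 4-group fit gave 8 higher and 11 lower integrated stress response genes beside 4 and 6. No scaling moved the median of all genes by 0.1 on the log2 scale.

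Same-numbered libraries of the lines correlated at 0.0647 to 0.164 in their deviations from line means, and 2 of 8 correlated best with their own number. In deviations from the means of line and set the values were -0.0284 to 0.0919, and 3 of 8 did. Correlations this weak do not decide whether the numbers pair the lines. With the replicate block 15332, 15691, 16398 and 10152 genes were called over 16 libraries, in replicates 1 to 4, in 5 to 8 and for the interaction, beside 15202, 15690, 16419 and 10152, and the block changed no other call of the 8 genes. Depth limits FGF21, AREG, INHBE and the MeWo levels of STC1, which rest on few counts.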
